A study of Mus musculus with 8 samples.

Results

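The genes of splicing factors and heterogeneous nuclear ribonucleoproteins (hnRNPs) were followed through 8 lists of CUT&RUN peaks for METTL14 and METTL3 in mouse embryonic stem cells. They were taken by symbol: every protein-coding gene named Srsf with a number, Snrp, Sf3a, Sf3b, U2af, Prpf or Hnrnp, apart from Hnrnpa2b1. The rule gave 68 of 21900 protein-coding genes, namely 12 Snrp, 9 Sf3a and Sf3b, 3 U2af, 13 Prpf, 11 Srsf and 20 Hnrnp genes. One of them, Hnrnpa1l2-ps2, is annotated as protein-coding although its symbol marks a pseudogene. CUT&RUN frees the DNA around an antibody-bound protein with a tethered nuclease, and a peak is a place where the authors' caller found that DNA enriched. METTL14 was profiled in a Mettl3 line (groups control and CKO) and METTL3 in a Mettl14 line (groups control and CKO), with 2 libraries in each of the 4 groups. All cells carry the strain label C57BL/6 and were grown with serum, LIF, CHIR99021 and PD0325901. The labels give neither the meaning of CKO nor how or when a gene was removed. They name no separate cultures for the 2 libraries of a group, and p-values then measure only the spread between these libraries, which can be technical. Each antibody had its own cell line, and no library with a nonspecific antibody was analysed here. For METTL14 the lists numbered 3129 and 3546 peaks (control) and 3922 and 1439 peaks (CKO), and for METTL3 242 to 353. The CKO list of 1439 peaks is therefore well under the others. Read depth is unknown, the lists carry no peak heights, and expression was not measured, so neither the genotype nor the markers of embryonic stem cells could be checked here. The order of a list is given below as a percentage of its length, although no source states what it ranks.

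Pre-mRNA splicing is carried out by the spliceosome, which assembles on each intron from small nuclear ribonucleoproteins (snRNPs). The Snrp genes encode mainly the ring of Sm proteins around the snRNAs, the SF3A and SF3B complexes and the U2AF heterodimer recognise the branch point and the 3' splice site, and the PRPF proteins serve largely in the later steps. SR proteins (Srsf genes) mostly favour exon inclusion and hnRNPs often counter them, and these genes are broadly active in dividing cells. METTL3 and METTL14 form the complex that methylates adenosine in nascent RNA, and some hnRNPs are described as binding methylated transcripts.

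The promoters of Snrpd2, Hnrnpk and Hnrnpa1 show where the METTL14 peaks sat, and were chosen because these genes had a region called in both control libraries and had a window among the promoter sequences (RefSeq, GRCm38.p6, the assembly behind mm10). Windows were found for 59 of the 68 genes. Each line gives the 250 bases before the annotated transcription start, 5' to 3' on the gene's strand, with capitals for bases covered by peaks of at least 2 METTL14 libraries.
Snrpd2: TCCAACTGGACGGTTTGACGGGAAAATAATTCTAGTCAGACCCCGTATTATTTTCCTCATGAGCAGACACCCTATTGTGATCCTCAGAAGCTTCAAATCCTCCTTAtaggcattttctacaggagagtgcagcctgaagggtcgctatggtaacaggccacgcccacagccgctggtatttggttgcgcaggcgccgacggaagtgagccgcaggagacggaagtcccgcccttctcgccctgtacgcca
Hnrnpk: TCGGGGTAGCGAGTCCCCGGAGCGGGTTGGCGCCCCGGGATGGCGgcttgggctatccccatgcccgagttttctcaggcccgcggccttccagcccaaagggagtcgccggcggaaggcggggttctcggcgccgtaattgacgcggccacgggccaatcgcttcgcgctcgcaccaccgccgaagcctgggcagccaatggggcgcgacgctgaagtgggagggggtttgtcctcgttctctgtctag
Hnrnpa1: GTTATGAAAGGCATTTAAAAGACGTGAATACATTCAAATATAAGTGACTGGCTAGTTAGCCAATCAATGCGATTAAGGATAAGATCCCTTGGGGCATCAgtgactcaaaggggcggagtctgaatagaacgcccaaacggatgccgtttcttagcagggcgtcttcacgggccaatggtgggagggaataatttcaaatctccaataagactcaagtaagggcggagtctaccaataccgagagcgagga
With the start counted as 0, the Snrpd2 line covers chr7:19149588-19149837 (plus strand) and its 106 capitals run from -250 to -145. The Hnrnpk line covers chr13:58402118-58402367 (minus strand), with 45 capitals from -250 to -206. The Hnrnpa1 line covers chr15:103240147-103240396 (plus strand), with 99 capitals from -250 to -152. In all 3 lines the capitals began at the upstream edge of the window, where the line was cut, and ended well before the start. The peaks ran on upstream of that edge, so each line shows only part of its site. Some bases of the Snrpd2 run were called in all 4 METTL14 libraries, some of the Hnrnpk run in 3, and none of the Hnrnpa1 run in more than 2. The Hnrnpa1 region called in both controls lies further upstream, outside its line.

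METTL14 peaks lay in or within 2 kb of 24 of the 68 genes (35.3%) in at least 1 library, where 20.8% of all protein-coding genes had one. Of the 20 Hnrnp genes, 12 were among them. The number of genes was 7 of 68 (10.3%) in control replicate 1, against 9.71% of all genes, and 16 (23.5%) in control replicate 2, against 11.2%. It was 19 (27.9%) in CKO replicate 1, against 12.9% of all genes, and 2 (2.94%) in CKO replicate 2, against 4.91%. Control replicate 2 and CKO replicate 1 thus stood above the share of all genes, control replicate 1 was near it, and the short list of CKO replicate 2 fell below it. With every METTL14 list shortened to its first 1439 peaks, 3 and 5 of the 68 genes were marked in the controls and 6 and 2 in the CKO libraries. The shares of all genes were 4.4%, 4.33%, 4.63% and 4.91% in the same order. At this length control replicate 1 was near its share of all genes and CKO replicate 2 below it. Control replicate 2 and CKO replicate 1 stood above theirs by few genes. The gene windows were compact, 1.86 Mb in all, and held 4.31 and 9.16 peaks per Mb in the controls and 11.9 and 1.08 in the CKO libraries. The windows of all protein-coding genes held 1.95, 2.26, 2.57 and 0.93 peaks per Mb in the same order. The density was thus above that of all genes in every METTL14 library. The share of genes was not, being near that of all genes in control replicate 1 and below it in CKO replicate 2. The median gene span was 13.1 kb for the 68 genes and 17.1 kb for all genes. Density depends on window length, so it is no measure of how many genes were marked, and the part of gene length was not tested.

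**Figure D1:**
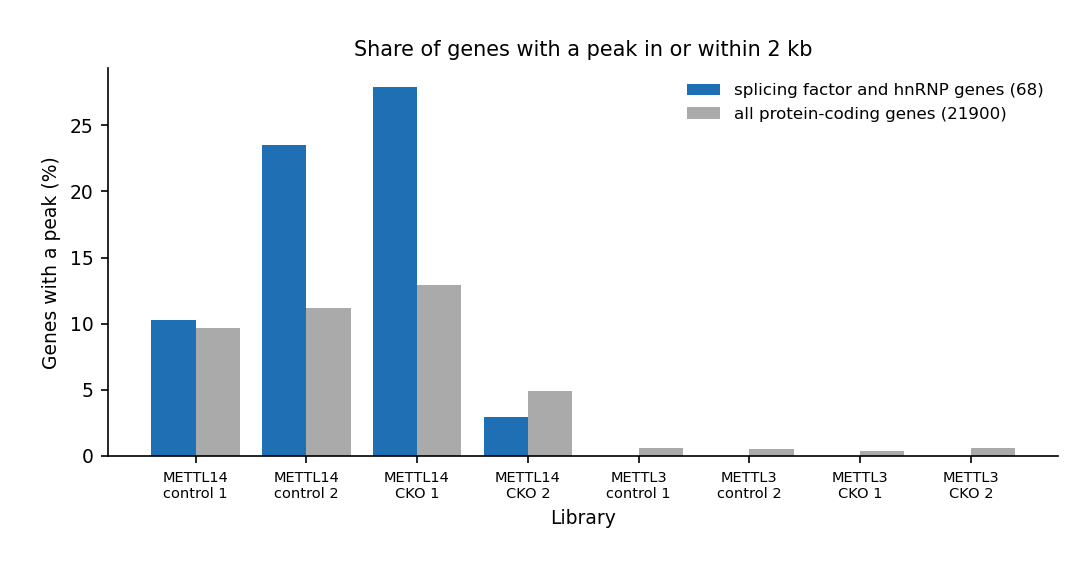
Bars show the percentage of genes with a peak in or within 2 kb, for the 68 splicing factor and hnRNP genes (blue) and all 21900 protein-coding genes (grey), in each of the 8 libraries (1 value per library, no error). The 68 genes stand at 23.5% and 27.9% in METTL14 control replicate 2 and CKO replicate 1 and at 0 in the 4 METTL3 libraries.

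Genotype did not separate these counts. The number of genes with a METTL14 peak was 11.5 ± 6.36 on average in control libraries (SD, n = 2), while Mettl3 CKO libraries had 10.5 ± 12 (SD, n = 2), a difference of -1 gene (two-sided exact permutation p = 1, smallest possible 0.333). The 2 CKO values, 19 and 2, lay on either side of the control values of 7 and 16, so the groups overlapped. The sign rested on single libraries: the difference was 7.5 without CKO replicate 2, -9.5 without CKO replicate 1, -5.5 without control replicate 1 and 3.5 without control replicate 2. Per 1000 peaks of the list, the genes numbered 2.24 and 4.51 in control and 4.84 and 1.39 in CKO libraries (difference -0.257, exact permutation p = 1).

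A replicated region, meaning a merged region touched by peaks of both libraries of a group, was found at 5 of the 68 genes in control cells (7.35%), where 3.82% of all genes had one. Snrpd2, Hnrnpa1, Hnrnpk and Hnrnpul2 were among them. In Mettl3 CKO cells only Snrpd2 had one (1 of 68, 1.47%, against 3.15% of all genes), and that count is bounded by the 2 genes that CKO replicate 2 reached. All 5 control regions were overlapped by a peak of CKO replicate 1, and the Snrpd2 region also by one of CKO replicate 2. The same 5 genes, and no others of the 68, had a peak in at least 3 METTL14 libraries (5.4% of all genes did), and Snrpd2 alone had one in all 4 (2.53% of all genes). At a minimum overlap of 50% of each peak, Hnrnpk, Hnrnpul2 and Snrpd2 were left in control cells, and with all METTL14 lists shortened to 1439 peaks only Hnrnpk was left.

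**Figure D2:**
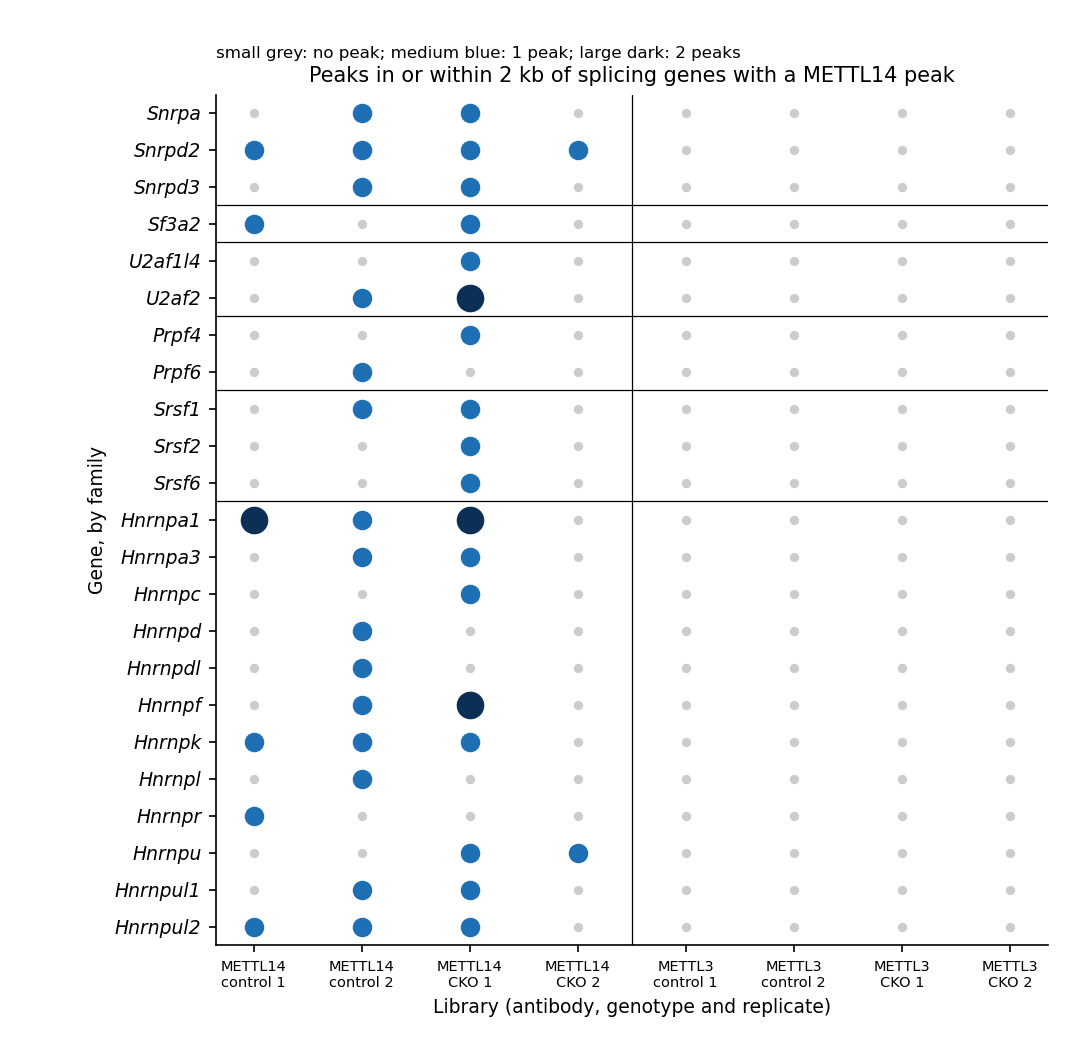
Rows are 23 of the 24 genes with a METTL14 peak in at least 1 library, ordered by family, and columns are the 8 libraries. Dot size and colour give the number of peaks in or within 2 kb (0, 1 or 2). Snrpd2 is filled in all 4 METTL14 columns, Hnrnpa1, Hnrnpk and Hnrnpul2 in 3, and the METTL3 columns are empty.

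Among the Snrp genes 3 of 12 had METTL14 peaks (25%), near the 20.8% of all protein-coding genes with one in at least 1 library. Snrpd2, which encodes the Sm core protein D2 (chr7:19149445-19152734), had 1 peak in every METTL14 library. They lay at chr7:19149577-19149725 and chr7:19149545-19149693 in the controls and at chr7:19149543-19149691 and chr7:19149544-19149692 in the CKO libraries. All but the first began within 2 bp of each other, and the middles of the 4 peaks lay at -221 to -187 bp from the annotated start, inside the gene as its outer boundaries are annotated. The site was thus nearly the same in both genotypes. In the order of the lists they stood at 59.5%, 88.8%, 39.4% and 77.8% of the length, away from the head of each list. Snrpd3, for the Sm protein D3, had a peak at chr10:75517765-75517913 in control replicate 2 and one at chr10:75517415-75517563 in CKO replicate 1. These did not overlap, so Snrpd3 counted in both libraries at different places. Snrpa, for the A protein of the U1 snRNP, had overlapping peaks at chr7:27196371-27196519 in control replicate 2 and chr7:27196408-27196556 in CKO replicate 1. The other 9, from Snrpb and Snrpe to the imprinted Snrpn, had none, although Snrpn spans 467683 bp as annotated.

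Of the 9 Sf3a and Sf3b genes only Sf3a2, a subunit of the SF3A complex, had peaks, at chr10:80798304-80798452 in control replicate 1 and chr10:80798332-80798480 in CKO replicate 1. The 2 peaks overlapped and lay outside the gene, at -357 and -329 bp from its start. Sf3a1, Sf3a3 and the Sf3b genes had none. The family was thus marked in 11.1% of cases, against 20.8% of all protein-coding genes, a gap that rests on few genes. U2af2, the large U2AF subunit that binds the polypyrimidine tract, had a peak inside the gene at chr7:5062296-5062444 in control replicate 2 and at chr7:5062225-5062373 in CKO replicate 1, with a further CKO replicate 1 peak at chr7:5061522-5061670. U2af1l4 had a peak in CKO replicate 1 alone, and U2af1 had none.

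Of the Prpf genes, Prpf4 had a peak in CKO replicate 1 alone, and Prpf6 in control replicate 2 alone, deep inside the gene and 27307 bp downstream of the start. Prpf8, the large protein at the catalytic centre, and Prpf19 had no peak in any library. The SR protein genes showed no replicated region in either group, and neither did the Sf3a, Sf3b and U2af genes. Of all genes, 3.82% had one in control and 3.15% in CKO cells, so 0 of 11 is near the share of all genes. Srsf1, a regulator of alternative 5' splice site choice, had nearly identical peaks at chr11:88047384-88047532 in control replicate 2 and chr11:88047380-88047528 in CKO replicate 1, 85 and 81 bp downstream of the start. Srsf2 and Srsf6 had a peak in CKO replicate 1 alone, and the other 8 of the 11 had none. This left 27.3% of the Srsf genes with a METTL14 peak in at least 1 library, against 20.8% of all genes.

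The Hnrnp genes, the family with the most members, were marked in 4 of 20 cases (20%) in control replicate 1, 9 (45%) in control replicate 2, 8 (40%) in CKO replicate 1 and 1 (5%) in CKO replicate 2. The shares of all protein-coding genes were 9.71%, 11.2%, 12.9% and 4.91% in the same order, so CKO replicate 2 was near its share. Hnrnpk, which encodes a poly(C)-binding protein (chr13:58391132-58403343), had 1 peak in each of 3 libraries. They lay at chr13:58402326-58402474 and chr13:58402323-58402471 in the controls and chr13:58402300-58402448 in CKO replicate 1. The control peaks shared 146 bases and stood at 31.2% and 15.7% of their lists, against 69.6% in CKO replicate 1. Hnrnpa1, an abundant splicing repressor (chr15:103239943-103246698), carried 2 separate sites. The outer one was called at chr15:103239657-103239805 in control replicate 1, chr15:103239547-103239695 in control replicate 2 and chr15:103239576-103239724 in CKO replicate 1, and the 2 control peaks shared 39 bases. The inner one, shown in part by the capitals of the printed promoter, was called at chr15:103240116-103240264 in control replicate 1 and chr15:103240097-103240245 in CKO replicate 1. In CKO replicate 1 the inner peak was number 192 of 3922, the earliest in its list of all peaks at these genes. Hnrnpul2, whose product resembles the chromatin-associated hnRNP U (chr19:8819401-8834143), had peaks at chr19:8819539-8819687 and chr19:8819523-8819671 in the controls and at the latter place again in CKO replicate 1.

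A further 4 Hnrnp genes had peaks in 2 libraries. Hnrnpa3 (chr2:75659057-75659205 and chr2:75659021-75659169), Hnrnpul1 (chr7:25755051-25755199 and chr7:25754993-25755141) and Hnrnpf (chr6:117906376-117906524 and chr6:117906477-117906625) were each called at overlapping places in control replicate 2 and CKO replicate 1. Hnrnpf had a further CKO replicate 1 peak at chr6:117916992-117917140, upstream of another of its annotated starts. Hnrnpu, which encodes a nuclear scaffold protein, was called in both CKO libraries and no control library, but at different places (chr1:178337887-178338035 and chr1:178336407-178336555), so no region was replicated. Single libraries called Hnrnpd, Hnrnpdl and Hnrnpl (control replicate 2), Hnrnpr (control replicate 1) and Hnrnpc (CKO replicate 1). The other 8, Hnrnpm, Hnrnph1 and Hnrnpab among them, had no peak.

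Of the 68 genes, 14 (20.6%) had a METTL14 peak in at least 2 libraries, as did 9.99% of all genes. The 49 gene peaks fell into 30 merged sites, of which 17 were called in 1 library, 8 in 2, 4 in 3 and 1 in all 4. Sites called in 2 or more libraries made up 43.3% at the 68 genes and 30.6% at all protein-coding genes. Control replicate 2 and CKO replicate 1 had 12 genes in common, 75% of the 16 and 63.2% of the 19, whereas the 2 controls had 5 in common, 71.4% of the 7 and 31.2% of the 16. Over all protein-coding genes the first pair of libraries shared 59% and 51.2% of their genes and the controls 55.3% and 48.1%. The largest number in common was thus between the 2 libraries with the most marked genes. The controls could share at most 7 genes and the CKO libraries at most 2, so this ranking says nothing about genotype. CKO replicate 2 shared both of its genes with CKO replicate 1 and 1 gene with each control. The list position of the peaks was later than the middle in 3 of the 4 libraries, with medians of 58.4% and 64% in the controls and 49.8% and 84.8% in the CKO libraries. Peaks at any protein-coding gene had medians of 48.2%, 48.9%, 50.1% and 53.1%.

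The peaks gathered upstream of the nearest annotated transcription start. Upstream here does not mean outside the gene, because some genes have an outer boundary further upstream than that start. Peaks at Snrpd2, Hnrnpk, Hnrnpf, Hnrnpl, Hnrnpul1, Hnrnpdl and Srsf2, the inner Hnrnpa1 site and 1 Hnrnpu peak lay upstream of the start but inside the gene span. The Hnrnpk peaks, for example, lay 869 to 895 bp inside the boundary. For genes with an annotated start, 33 of 39 peaks over the 4 METTL14 libraries (84.6%) had their middle within 1 kb upstream, 3 (7.69%) within 1 kb downstream and 3 further away, with a median position of -221 bp. Over all protein-coding genes 41.2% of 7998 gene and peak pairs lay within 1 kb upstream, 22.9% within 1 kb downstream and 35.9% further away, with a median of 18 bp. The upstream share was 5 of 6 peaks in control replicate 1, 10 of 13 in control replicate 2, 17 of 18 in CKO replicate 1 and 1 of 2 in CKO replicate 2, against 36.6%, 39.2%, 44.4% and 46.4% for all genes. The position was thus alike in the control libraries and CKO replicate 1. Libraries call many of the same sites, so the peaks are not independent. The exceptions were the Srsf1 peaks and the Hnrnpd peak, 95 bp downstream, together with 1 peak each inside Hnrnpr (6470 bp downstream), Prpf6 and Hnrnpu (1334 bp).

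**Figure D3:**
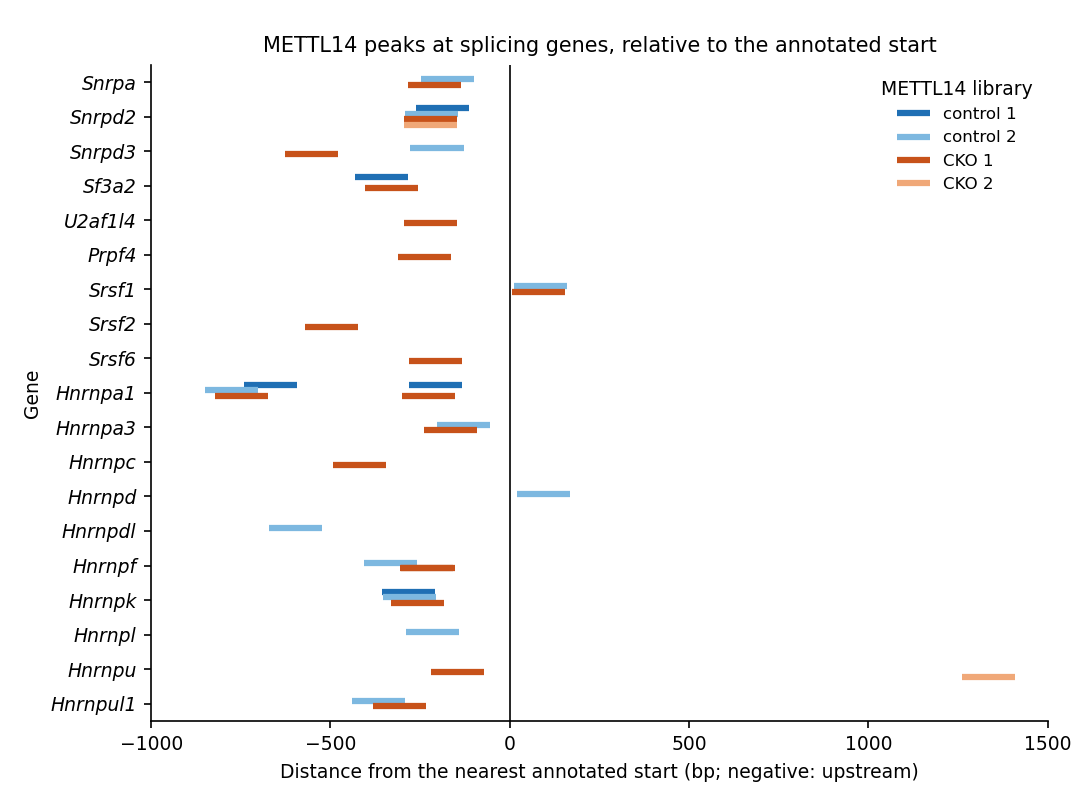
Bars show METTL14 peaks from end to end at genes with an annotated start, by distance in bp from the nearest start (negative is upstream, black line at 0), coloured by library. Most bars lie to the left of 0, with a median of -221 bp, and the peaks of Hnrnpr (6470 bp) and Prpf6 (27307 bp) fall outside the axis.

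Many of these peaks lay close to the start of a second gene. Of the 24 genes with a METTL14 peak, 12 had one within 1 kb of the annotated start of another protein-coding gene. The share over all genes with a METTL14 peak was not computed for this measure, so whether 12 of 24 is high is unknown. Among the peaks within 1 kb of another gene's start, 19 had both starts annotated. The other gene lay on the opposite strand in all 19, and in 15 the peak was closer to the start of the other gene. Peaks near 2 starts mostly select gene pairs that start back to back, so the strand count was largely set by this choice. Libraries call many of the same sites, so the 19 peaks are not independent. At Hnrnpa1 the outer site lay at -776 to -666 bp from its own start and 121 to 231 bp downstream of the start of Cbx5, which encodes heterochromatin protein HP1 alpha. At Hnrnpk the peaks lay at -283 to -257 bp from its start and 126 to 152 bp downstream of the start of Rmi1, a gene of the BLM helicase complex. At Sf3a2 they lay 220 and 248 bp downstream of the start of Plekhj1. The Hnrnpul2 peaks were at -319 to -303 bp from the start of Ttc9c. All 4 Snrpd2 peaks also lay within 2 kb of the protein-coding gene Qpctl. No start of Qpctl was among the promoter windows, so its distance is unknown and Snrpd2 is not among the 12. Srsf2 shared its peak with Mfsd11, Prpf4 with Cdc26, Hnrnpdl with Enoph1, U2af1l4 with Psenen and Snrpd3 with Gucd1. A peak counted here for a splicing gene is therefore often as much a peak of its neighbour, and a peak list cannot assign it to one of them.

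Close neighbours were common among these genes. Another protein-coding gene lay within 2 kb of 41 of the 68 (60.3%), against 37.2% of all genes. The share was 19 of 24 (79.2%) for those with a METTL14 peak and 22 of 44 (50%) for those without. Among all genes it was 49.3% with and 34.1% without a METTL14 peak. Of peaks within 1 kb of any annotated start, those at the 68 genes touched a second gene in 7 of 7, 12 of 15, 15 of 20 and 1 of 1 cases in the 4 libraries (controls first), against 27.8%, 26.4%, 24.5% and 24.5% for all such peaks. A peak near 2 genes has 2 chances of being counted at the 68 genes. Among all such peaks it counts once, so these shares are not fully alike. The part of such peaks in the number of marked genes was not tested.

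The promoters were also rich in CpG dinucleotides. Over windows of 300 bases around the start, the median was 25 CpGs and 60% G+C in the 79 windows of the 59 genes, against 13 CpGs and 56.3% in 21263 windows of all protein-coding genes. The windows of genes with a METTL14 peak had a median of 29 CpGs, and those of the rest of the 59 genes 24. Over all genes the medians were 20 with and 10 without a METTL14 peak. The 3 printed promoters were unlike in this respect, with 40 CpGs for Hnrnpk, 20 for Snrpd2 and 16 for Hnrnpa1 in the full window. Among all genes whose window held at least 25 CpGs, 33.1% had a METTL14 peak in at least 1 library, and 14 of the 33 splicing genes of that kind did (42.4%). Below 25 CpGs the shares were 16.3% of all genes and 7 of 26 splicing genes (26.9%). In control replicate 2 and CKO replicate 1 the splicing genes with at least 25 CpGs were marked in 24.2% and 30.3% of cases, against 17.8% and 20.8% of all such genes. In control replicate 1 and CKO replicate 2 they were marked in 9.09% and 3.03%, against 14.7% and 7.87%. The part of CpG content in the number of marked genes was not tested.

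Short motifs were counted in the same windows on both strands, as letters and not as binding sites. The ETS core CCGGAAG was present in 31.6% of the 79 windows and 11.6% of all windows, but in 23.1% of the 26 windows of splicing genes with a METTL14 peak. The GC box GGGCGG was present in 64.6%, 46.2% and 76.9%, and the CCAAT box (CCAAT) in 46.8%, 38.2% and 46.2%, in the same order. Motifs were not counted separately in windows of all genes with a METTL14 peak. Those windows had a median of 61% G+C, against 55% for all genes without one, and the part of base composition was not tested. TATAAA was present in 10.1% of the 79 windows and 12.6% of all, GCGCATGC (a core of NRF1 sites) in 5.06% and 3.52%, and AAGATGGC (a core of YY1 sites) in 3.8% and 3.05%. The Hnrnpa1 window held CCAAT in either direction 4 times, of which 1 match, at -191, lay in the capitals. It also held 2 GC boxes, at -140 and -31. The Hnrnpk window held 2 CCAAT matches, at -95 and -54, and the Snrpd2 window 1 GC box, at -24. These GC boxes and the Hnrnpk matches were all in lower case.

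Other genes of the splicing machinery, 113 in 6 lists, had a METTL14 peak in 41 cases (36.3%), close to the 35.3% of the 68 genes. The share of all protein-coding genes was 20.8%. By library 15.9% and 19.5% of the 113 were marked in the controls and 23% and 8.85% in the CKO libraries, against 9.71%, 11.2%, 12.9% and 4.91% of all genes. The list of hnRNP-like RNA-binding genes under other symbols (20 genes) had 8, 5, 9 and 4 marked genes in the 4 libraries, and 10 in any. Cirbp, for a cold-inducible RNA-binding protein, Pcbp3 and Raly had replicated CKO regions, and Tardbp, for the RNA-binding protein TDP-43, a replicated control region. The SR kinases and SR-related genes had 9 of 18 marked in any library, with replicated CKO regions at Srek1 and Srrm2. The exon junction complex had 3 of 6, Rbm8a with a replicated control region. Helicases and genes of the Prpf19-associated complex had 7 of 22, with Plrg1 replicated in CKO cells, and the other snRNP and Sm-like genes had 4 of 19, with Eftud2 replicated in control cells. Tissue-restricted regulators, such as the Celf, Nova and Elavl genes, had 8 of 28 in any library and 2, 4, 2 and 2 by library, and no replicated region. Over the 113 genes, 3 had a replicated region in control and 6 in CKO cells (2.65% and 5.31%, against 3.82% and 3.15% of all genes). The order of the groups was thus opposite to that of the 68 genes, with small counts in both.

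**Figure D4:**
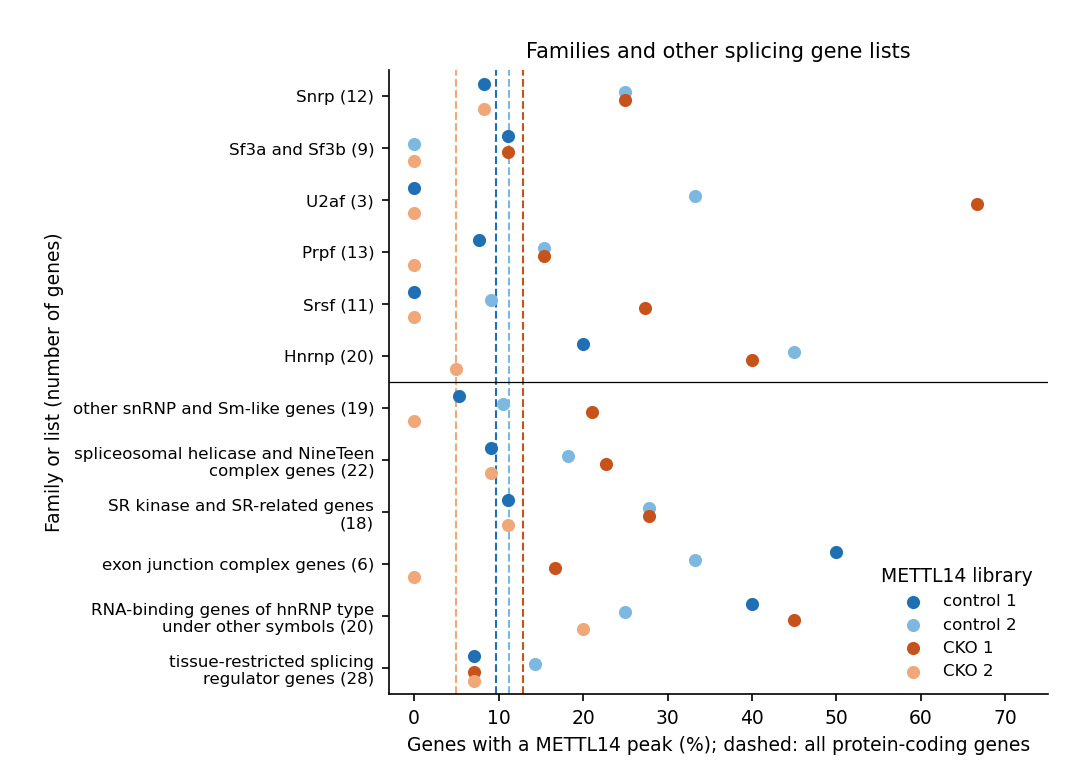
Points give the percentage of genes with a METTL14 peak in or within 2 kb, by library (colour), for the 6 families of the 68 genes (above the line) and 6 lists of other splicing genes (below), with the number of genes in brackets. Dashed lines give all protein-coding genes. The Hnrnp family stands at 20%, 45%, 40% and 5%, and the tissue-restricted regulators at 7.14% to 14.3%.

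METTL3 had no peak in or within 2 kb of any of the 68 genes, in any of the 4 libraries. These lists were short: 0.635% and 0.566% of all protein-coding genes had a METTL3 peak in the Mettl14 control libraries and 0.393% and 0.584% in the Mettl14 CKO libraries, and 1.53% in at least 1 of the 4. Replicated METTL3 regions marked 0.151% of all genes in control and 0.164% in CKO cells. With so few genes marked, a count of 0 among 68 is near what the share of all genes gives and does not show that METTL3 is absent from these genes. With 0 in all 4 libraries, control and CKO could not be compared. The nearest METTL3 peak to any of the 68 genes was 24801 bp from Prpf38b in control replicate 2 and 120865 bp from Snrpd1 in control replicate 1. In the CKO libraries it was 237017 bp from Prpf19 in replicate 1 and 107714 bp from Hnrnpul1 in replicate 2. Among the 113 other splicing genes METTL3 peaks were found at Rbfox1 (control replicate 1) and Msi2 (CKO replicate 1), each in 1 library, which are named because they were the only ones. With no METTL3 peak within 2 kb of the 68 genes, no METTL14 site there could coincide with one, so this is not a separate result.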

How the data were processed

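Peaks of 8 CUT&RUN libraries were used as the authors deposited them, 1 list per library, with start and end in mm10. The deposited score was 1 for every peak. Tools listed without a role in the submitters' processing notes are HOMER, Bowtie2 2.4.1, Trimmomatic 0.38, SAMtools and CASAVA. Peak threshold and read depth: not given in the sources used here. Coordinates are 1-based. Genes, spans and promoter windows (250 bases before to 50 after each start) came from RefSeq GRCm38.p6 tables, with strand from the promoter table only, so exons and introns were not analysed. A gene counted as marked by a peak in it or within 2 kb, with 1 bp of overlap. Overlapping peaks were merged, and a region with peaks of both libraries of a group was replicated. Counts per library were compared by exact permutation (Python 3.11.15, NumPy 2.4.6, pandas 2.3.3), and the overlap steps were tested on simulated data. Named were all genes with a replicated region or peaks in 2 or more libraries, with those of 1 library by name. One gene that this rule selects is not reported here, but the counts include it. The genes, lists and tests were chosen with earlier results of these data known, and the CpG, motif, neighbour and start-distance measures after the values were seen.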

Additional observations from a re-analysis of the deposited data

How the results depend on the processing

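The count of 5 genes with a replicated METTL14 region in control cells was 3 in the gene body only, 3 at 50% reciprocal overlap, 3 within 1 kb of an annotated start (an alternative chosen after seeing the data), 1 with lists of equal length and 18 with a peak in either library. It stayed at 5 with windows of 1 and 5 kb, at boundaries only, and with peaks that need not overlap. Leaving out sites shared with METTL3 removed nothing at these genes and is no check. The CKO count of 1 became 2 with 5 kb (Prpf31 added), 2 without the need to overlap, 19 with either library and 0 at equal length. A single library in place of both gave 7 to 16 genes in control and 2 to 19 in CKO cells. The genotype difference of -1 became 0 at equal list length, with 5 kb and at boundaries only, and ranged from -9.5 to 7.5 when 1 library was left out, with 3.5 without control replicate 2. The exact permutation p was 0.667 or 1 in these settings. With the replicate number as a block the difference was -1 (paired exact permutation p = 1, smallest possible 0.5). Over genes with a peak, the deviations of same-numbered libraries correlated at 0.000119 (METTL14) and -0.0477 (METTL3). With 2 libraries per group and peak calls only, this cannot decide whether same-numbered libraries were prepared together. All METTL3 counts were 0 in the settings run. Control replicate 2 and CKO replicate 1 give most of the marked genes, and the unknown depth limits any reading of a missing peak.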
